A study of Mus musculus with 6 samples.

Results

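The subject is a set of 10 genes around NRF2 and glutathione redox defence, measured in mouse macrophages with less Lamtor5 and in wild-type macrophages. The members were chosen by name, and all 10 (Nfe2l2, Gclc, Gclm, Gsr, Slc7a11, Nqo1, Osgin1, Txnrd1, Srxn1 and Me1) were found among the 55401 genes of the deposited table, each under 1 identifier. All 10 also passed the filter on low counts and entered the test. RNA was sequenced from bone marrow-derived macrophages, cells grown out of mouse bone marrow with the growth factor M-CSF, in 3 Lamtor5 knockdown libraries and 3 WT libraries. The design text writes the mutant as HBXIPΔLysM, where HBXIP is another name of Lamtor5 (a Ragulator subunit, part of the lysosomal platform that recruits mTORC1) and LysM points to the lysozyme promoter that drives Cre in myeloid cells. All 6 libraries are from cells grown with M-CSF and no other treatment is labelled. The sources used here give neither the age nor the strain of the mice. They also do not say whether replicate libraries stand for different animals or cultures, so each p-value rests on library-to-library spread that may be technical.

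NRF2, encoded by Nfe2l2, is the transcription factor that switches on defence against oxidants and reactive chemicals. In resting cells the adaptor Keap1 delivers it to a ubiquitin ligase, and it is degraded. When cysteines of Keap1 are modified, NRF2 accumulates, pairs with a small Maf protein and binds antioxidant response elements in its target genes. NRF2 is therefore controlled mainly at the protein level, which was not measured here. Its classic targets supply cystine, make and recycle glutathione, keep thioredoxin and peroxiredoxins reduced, and provide NADPH as the reducing power for both systems.

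Depth was even across libraries, at 25.7 to 27.1 M read pairs kept after trimming in the knockdown and 27.6 to 27.8 M in WT, and each member had at least 847 estimated counts in each library. Lamtor5 itself (GRCm38 chromosome 3, 107278858 to 107284082, plus strand) was at 25.5, 27.1 and 24.8 FPKM (fragments scaled to gene length and library size) in the knockdown, against 55.9, 54.5 and 56.2 FPKM in WT. The groups did not overlap (exact two-sided permutation test, p = 0.1, the smallest that 3 against 3 libraries can give), and about 46.5% of the WT level was left. Knockdown replicate 3 stood apart from its group at Lyz2, the LysM locus, with 73.6 FPKM beside 11356 and 10650 FPKM in knockdown replicates 1 and 2, against 29379, 24743 and 22454 FPKM in WT. Lamtor5 was as low in it as in the other 2, but whether this library has the same genotype at the LysM locus was not tested, so what the mean of the 3 knockdown libraries stands for is uncertain there. Below, the members' estimates and the counts of calls in the lists of related redox genes are therefore also given without it. Macrophage markers were present in both groups, among them Adgre1 (F4/80) at 62.7 to 73.5 FPKM in the knockdown, against 107 to 166 FPKM in WT. In the edgeR test given below, 5 of 8 such markers fell while 1, Cd68, rose, beside 6.46% and 4.87% of all tested genes. The number that fell was 1, 2 and 2 without knockdown replicates 1, 2 and 3. It was 4, 0 and 5 without WT replicates 1, 2 and 3. These fits called 377, 1130, 781, 2334, 0 and 625 genes in the whole table, against 2058 on all 6 libraries. The 0 without WT replicate 2 was thus fixed in advance. DESeq2, an alternative used below, called 5 or 6 markers lower in each such fit, and 2640 to 4738 genes in the whole table. In bulk RNA, fewer cells of a type and less RNA per cell cannot be told apart.

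Of the 10 members 1 rose in the knockdown, Osgin1, and 1 fell, Me1, in edgeR's quasi-likelihood test adjusted over all 18164 tested genes at a threshold of 0.05. Over all tested genes 11.3% passed, 4.87% higher and 6.46% lower, so the 2 of 10 is not read as a result about the set. The median log2 fold change of the members was -0.14, against 0.02 over all tested genes. Without knockdown replicate 3 the members' median was 0.05, against 0.01 over all tested genes, so its sign rests on that library. The knockdown and WT libraries were fully separated for 2 members, the same ones, while 37.6% of all tested genes were separated in this sense. The promoters of both are shown before the values, because both have a window with a match to the core of the antioxidant response element (for Me1, 1 of its 2 windows), and that of Srxn1 is shown as a member with more matches whose test was not passed. The sequences are from RefSeq (GRCm38.p6), run 5′ to 3′ on the strand of the gene, from 250 bases before the annotated start to 50 after it, and capitals mark matches to TGACNNNGC or TGAGNNNGC on either strand.
Osgin1 (chr8:119436897-119437196, plus strand): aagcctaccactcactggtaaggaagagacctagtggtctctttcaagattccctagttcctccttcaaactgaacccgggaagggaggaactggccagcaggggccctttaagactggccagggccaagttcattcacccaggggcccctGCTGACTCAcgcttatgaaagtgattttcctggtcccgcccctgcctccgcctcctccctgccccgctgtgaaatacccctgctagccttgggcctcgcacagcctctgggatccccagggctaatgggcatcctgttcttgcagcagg
Me1 (chr9:86695865-86696164, minus strand): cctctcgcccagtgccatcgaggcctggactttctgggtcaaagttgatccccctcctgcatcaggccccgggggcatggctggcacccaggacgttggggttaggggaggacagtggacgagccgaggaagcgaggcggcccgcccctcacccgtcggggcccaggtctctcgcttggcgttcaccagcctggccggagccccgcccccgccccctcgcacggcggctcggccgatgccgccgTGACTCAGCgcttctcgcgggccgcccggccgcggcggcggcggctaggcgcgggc
Srxn1 (chr2:152105274-152105573, plus strand): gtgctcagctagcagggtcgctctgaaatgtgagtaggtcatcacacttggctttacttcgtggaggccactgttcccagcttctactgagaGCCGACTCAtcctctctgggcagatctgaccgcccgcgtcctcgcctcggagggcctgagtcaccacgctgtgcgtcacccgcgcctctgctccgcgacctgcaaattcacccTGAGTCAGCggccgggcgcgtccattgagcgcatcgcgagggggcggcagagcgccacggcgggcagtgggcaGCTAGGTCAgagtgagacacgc

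RefSeq windows were found for 8 members, with 11 windows in all; Gclc and Gsr had none in the table. A match to either form was present in 7 of the 11 windows, and in at least 1 window of 7 of the 8 members. Nqo1 was the member without one. Among all 32851 promoter windows of the same length, 27.8% held such a match (12.4% for TGACNNNGC and 17.6% for TGAGNNNGC). The RefSeq start of Osgin1 used for the window lies inside the gene as the deposited table bounds it. The match in Osgin1 begins 99 bases before the start and lies on the minus strand of the gene. The match in Me1, TGACTCAGC, begins 6 bases before the annotated start. Me1 has a second RefSeq start, and the window around it (chr9:86687228-86687527, not printed) holds no match. Both overlap the AP-1 motif TGANTCA, which is found in 7.81% of all windows, and so does 1 of the 3 matches in Srxn1. The E-box core CACGTG, which MiT/TFE factors can bind, was in none of the 11 windows and in 7.15% of all windows. These are letter matches in one window per start and say nothing about binding.

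**Figure D1:**
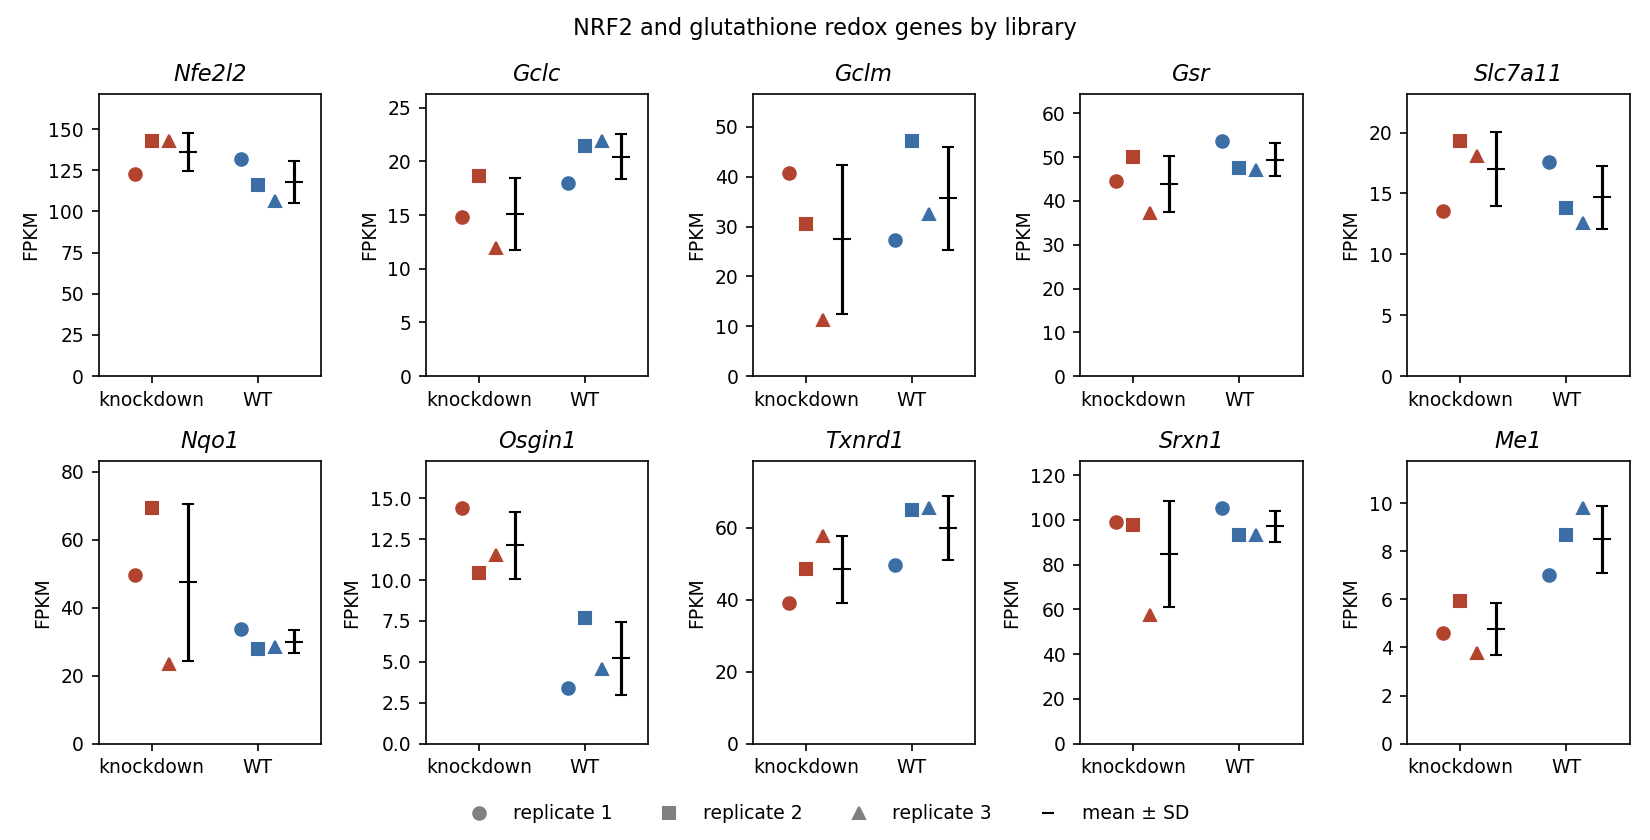
FPKM of the 10 genes in each library, with knockdown libraries in red left of WT libraries in blue, symbols for the replicate number, and a black bar for mean ± SD (n = 3). Only Osgin1 and Me1 have fully separated groups, and knockdown replicate 3 is the lowest of the 6 libraries for Nqo1, Gclc, Gclm, Gsr, Srxn1 and Me1.

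Nfe2l2 (GRCm38 chromosome 2, 75675513 to 75704641, minus strand) was at 123, 143 and 143 FPKM in the knockdown, against 132, 116 and 106 FPKM in WT. Knockdown replicates 2 and 3 lay above all WT libraries and replicate 1 lay inside the WT range. The means were 136 ± 11.4 FPKM in knockdown libraries and 118 ± 12.9 FPKM in WT (SD, n = 3 each), a log2 fold change of 0.25 (SE 0.11) that did not pass in edgeR (adjusted p = 0.184). By DESeq2 it passed without WT replicate 1 (log2 fold change 0.35, adjusted p = 0.00880) and in no other fit with 1 library left out. Leaving out knockdown replicate 3 gave 0.21 in edgeR (adjusted p = 0.369). Nfe2l2 had the highest level per length of the 10 genes in both groups.

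Osgin1, an oxidative stress-induced growth inhibitor gene and known NRF2 target, was the member that rose. It lies on chromosome 8 from 119434124 to 119446256 (plus strand). The knockdown libraries held 14.4, 10.4 and 11.5 FPKM, against 3.40, 7.71 and 4.55 FPKM in WT. Each knockdown library was above each WT library, although WT replicate 2 came within 2.70 FPKM of knockdown replicate 2. The mean was 12.1 ± 2.06 FPKM in knockdown libraries and 5.22 ± 2.23 FPKM in WT (SD, n = 3 each), with a log2 fold change of 1.27 (SE 0.30, edgeR adjusted p = 0.0418). The call was narrow. In edgeR the log2 fold change was 1.30 without knockdown replicate 3 (adjusted p = 0.0973). Leaving out any 1 of the 6 libraries ended it in edgeR, with adjusted p from 0.0616 to 0.128 and log2 fold changes from 1.05 to 1.65, whereas DESeq2 called it in each of the 6 fits (adjusted p up to 0.0181).

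Me1, the cytosolic malic enzyme that makes NADPH while turning malate into pyruvate, was the member that fell. It lies on chromosome 9 from 86581371 to 86695953 (minus strand). Its level was 4.62, 5.93 and 3.76 FPKM in the knockdown, against 7.01, 8.69 and 9.80 FPKM in WT. All knockdown libraries were below all WT libraries. The mean was 4.77 ± 1.09 FPKM in knockdown libraries and 8.50 ± 1.40 FPKM in WT (SD, n = 3 each), or 56.1% of the WT level, with a log2 fold change of -0.79 (SE 0.18, edgeR adjusted p = 0.0391). The log2 fold change was -0.65 without knockdown replicate 3. The adjusted p was 0.103 without knockdown replicate 1, 0.0917 without knockdown replicate 3, 0.129 without WT replicate 2 and 0.111 without WT replicate 3. It stayed under 0.05 without knockdown replicate 2 (0.0420) and without WT replicate 1 (0.0342), and DESeq2 called it in each of the 6 fits.

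**Figure D2:**
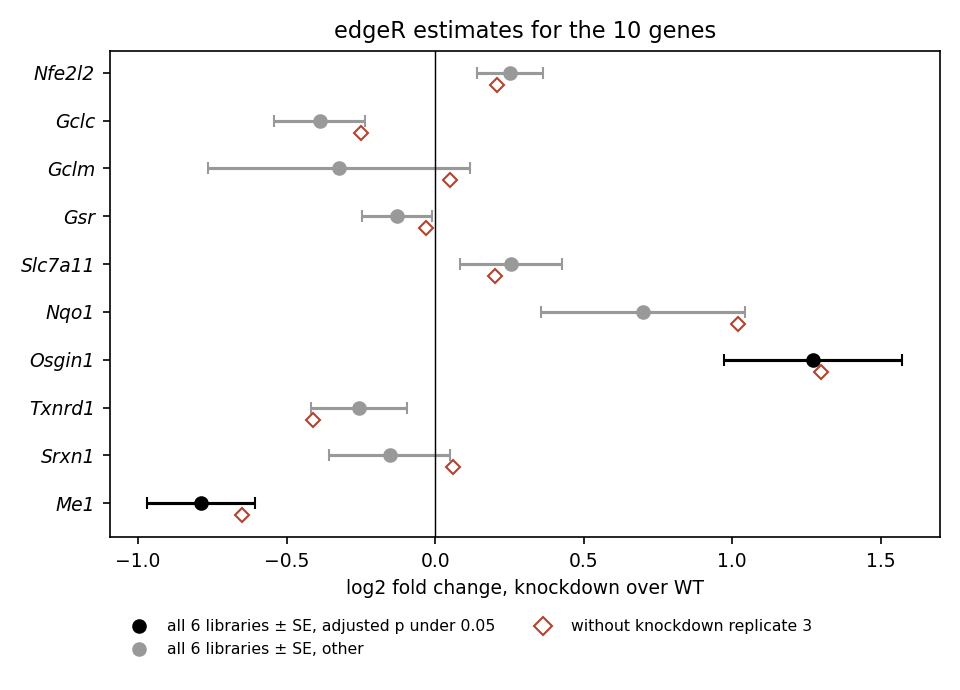
Log2 fold change, knockdown over WT, of the 10 genes with its SE (circles, n = 3 libraries each; black where the adjusted p was under 0.05) and the estimate without knockdown replicate 3 (diamonds). Osgin1 at 1.27 and Me1 at -0.79 are the black points, and the diamonds of Gclm and Srxn1 lie on the other side of 0 from their circles.

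The other 8 members did not pass the test on all 6 libraries, which does not show that they were at equal levels. Among them were the genes of glutathione synthesis. Gclc, the catalytic subunit of glutamate-cysteine ligase, the first and limiting enzyme of glutathione synthesis, was at 14.8, 18.6 and 11.9 FPKM in the knockdown, against 18.0, 21.4 and 21.9 FPKM in WT. Knockdown replicates 1 and 3 lay below all WT libraries and replicate 2 lay above WT replicate 1. Its log2 fold change was -0.39 (SE 0.15, adjusted p = 0.143), and DESeq2 called it lower without knockdown replicate 2 alone (-0.54, adjusted p = 0.0104). Leaving out knockdown replicate 3 instead gave -0.25 in edgeR (adjusted p = 0.271).

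Gclm, the modifier subunit of the same ligase, had the largest SE of the 10 genes. It was at 40.7, 30.4 and 11.2 FPKM in the knockdown, against 27.2, 47.2 and 32.5 FPKM in WT. The groups overlapped, with knockdown replicate 3 far below the rest. The log2 fold change was -0.32 with an SE of 0.44 (adjusted p = 0.671), and it was 0.05 without knockdown replicate 3. Gclm lies on chromosome 3 from 122245557 to 122270732 (plus strand) and overlaps the antisense gene Gm17494, whose exons share 296 bases with 1 of 7 annotated Gclm transcripts and none with the other 6. Gm17494 was at 5.93, 17.0 and 14.9 FPKM in the knockdown, against 6.46, 5.99 and 9.32 FPKM in WT. The 2 knockdown libraries with less Gclm had more of it, but this order did not hold over all 6 libraries. Knockdown replicate 3 had the least Gclm but less Gm17494 than knockdown replicate 2. WT replicate 1 had less of both genes than knockdown replicate 2. The sources used here do not say whether counting used strand, and how far reads of the 2 genes were mixed was not tested.

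Slc7a11, the cystine-glutamate exchanger xCT that brings in the cystine needed for glutathione, was at 13.6, 19.3 and 18.1 FPKM in the knockdown, against 17.6, 13.8 and 12.6 FPKM in WT. The groups overlapped, and within each group 1 library sat at the other group's level. Its log2 fold change was 0.25 (SE 0.17, adjusted p = 0.371), and 0.20 without knockdown replicate 3 (edgeR adjusted p = 0.606). Gsr, the glutathione reductase that returns oxidized glutathione to its reduced form with NADPH, was at 44.4, 49.99 and 37.1 FPKM in the knockdown, against 53.7, 47.5 and 47.0 FPKM in WT. Its log2 fold change of -0.13 was about the size of its SE of 0.12 (adjusted p = 0.520), and it was -0.03 without knockdown replicate 3.

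The quinone reductase gene Nqo1, often used as a readout of NRF2, had 49.7, 69.3 and 23.4 FPKM in the knockdown, against 33.8, 27.7 and 28.3 FPKM in WT. Knockdown replicates 1 and 2 were above every WT library and knockdown replicate 3 was below every WT library. With this split the log2 fold change of 0.70 had an SE of 0.34 and did not pass in edgeR (adjusted p = 0.224). Without knockdown replicate 3 it was 1.02 and passed in edgeR (adjusted p = 0.0355) and in DESeq2 (adjusted p = 9.18e-06). In the other 5 fits with 1 library left out the log2 fold change was 0.36 to 0.81, and it passed in none of them by either tool.

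Genes of the thioredoxin branch among the members did not pass either. Txnrd1, the cytosolic thioredoxin reductase, a selenoprotein, had 39.2, 48.6 and 57.8 FPKM in the knockdown, against 49.7, 64.8 and 65.5 FPKM in WT. Here knockdown replicate 3 was the highest of its group and lay inside the WT range, and the log2 fold change was -0.26 (SE 0.16, adjusted p = 0.339). Leaving that library out gave -0.41 in edgeR (adjusted p = 0.149). Txnrd1 overlaps Eid3 on the same strand, which held few counts beside it (154 in knockdown replicate 1). Srxn1, the sulfiredoxin that repairs overoxidized peroxiredoxins, had 98.9, 97.9 and 57.5 FPKM in the knockdown, against 105, 93.1 and 93.2 FPKM in WT. Knockdown replicates 1 and 2 were at the WT level and replicate 3 was well below it, so the log2 fold change was -0.15 (SE 0.20, adjusted p = 0.666) with it and 0.06 without it.

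The members thus differed in which libraries were high and low. In knockdown replicate 3 a total of 6 of 10 members (Nqo1, Gclc, Gclm, Gsr, Srxn1 and Me1) had the lowest value of all 6 libraries, while Osgin1, Txnrd1, Nfe2l2 and Slc7a11 did not. Over all tested genes that library was the lowest for 25.2%, also the largest share of the 6 libraries (8.9% to 18.5% in the others). The members share this library, so the count is a description of it. Per length, the order of mean levels in the knockdown was Nfe2l2, Srxn1, Txnrd1, Nqo1, Gsr, Gclm, Slc7a11, Gclc, Osgin1 and Me1. In WT it was Nfe2l2, Srxn1, Txnrd1, Gsr, Gclm, Nqo1, Gclc, Slc7a11, Me1 and Osgin1. In the knockdown the library values of neighbours overlapped at every step from Srxn1 to Osgin1. In WT they overlapped between Txnrd1 and Gsr, Gsr and Gclm, Gclm and Nqo1, and Me1 and Osgin1, so the exchange of the last 2 places was the one between members that passed the test.

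**Figure D3:**
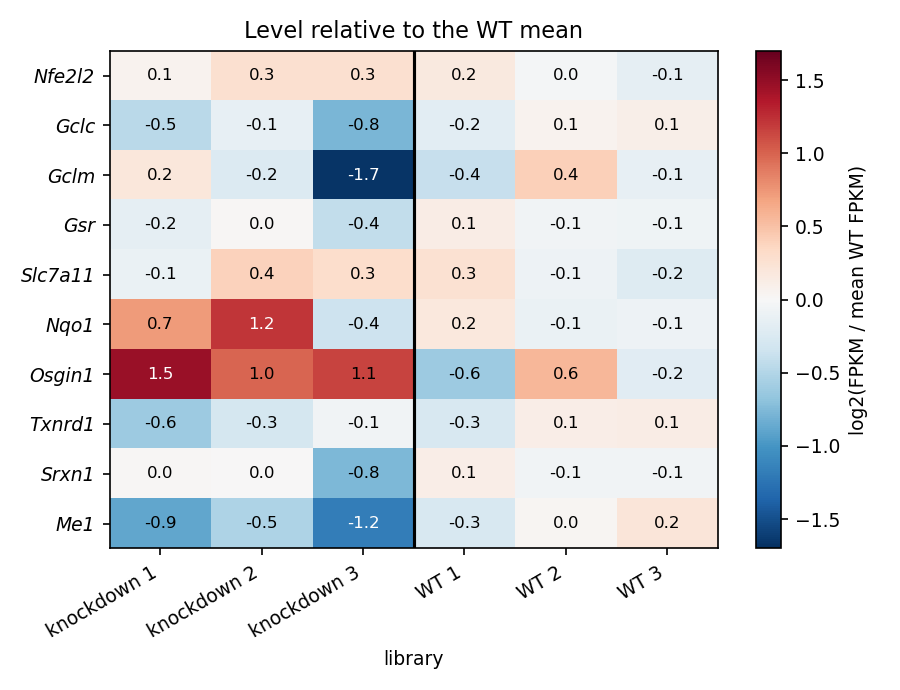
Log2 ratio of FPKM to the mean WT FPKM for the 10 genes (rows) in each library (columns, knockdown left of the line and WT right of it), with red above and blue below the WT mean. Osgin1 is red and Me1 blue in all 3 knockdown libraries, and the column of knockdown replicate 3 holds the lowest values of Gclm, Srxn1 and Nqo1.

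Related genes were counted in 6 further lists, in which 21 of 121 tested genes (17.4%) passed the edgeR test, beside 11.3% of all tested genes. All 21 kept their direction with any 1 library left out. They were picked for passing on these same libraries, so neither this nor the DESeq2 calls below are independent support. The number that still passed in edgeR was 0 without WT replicate 2, 7 without knockdown replicate 1, 7 without knockdown replicate 3, 9 without WT replicate 3, 13 without knockdown replicate 2 and 19 without WT replicate 1. These counts are to be read beside the whole table, where 2058 genes passed in edgeR on all 6 libraries. There edgeR called 0 genes without WT replicate 2, which fixed the 0 of the lists in advance. It called 377 genes without knockdown replicate 1, 781 without knockdown replicate 3 and 625 without WT replicate 3. It called 1130 without knockdown replicate 2 and 2334 without WT replicate 1. DESeq2 called 3150 genes without knockdown replicate 3, against 4147 on all 6 libraries. On all 6 libraries, 14 of the 21 passed without a count filter, 11 in limma on log2(FPKM + 1) without a filter and 11 with the replicate number as a block. DESeq2 called all 21 in each fit with 1 library left out, and in those fits it called 2640 to 4738 genes of the whole table. On all 6 libraries it called 22.8% of all tested genes.

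Among the genes that control NRF2, the small Maf genes Maff and Mafk rose. They were 2 of 16 tested genes, and none fell (list median log2 fold change -0.09), and 1 rose without knockdown replicate 3. Maff encodes a small Maf that pairs with NRF2 or forms repressive homodimers. It was at 2.10, 2.41 and 2.89 FPKM in the knockdown, against 0.861, 1.002 and 0.651 FPKM in WT. All knockdown libraries lay above all WT libraries, and its log2 fold change was 1.598 (SE 0.23, edgeR adjusted p = 0.0135). Mafk, of the same family, was at 10.1, 10.1 and 10.2 FPKM in the knockdown, against 7.77, 7.92 and 7.51 FPKM in WT (0.44, SE 0.079, adjusted p = 0.0211). The third small Maf, Mafg, had the highest level of the family, with 25.2 ± 2.54 FPKM in knockdown libraries and 31.7 ± 1.11 FPKM in WT (SD, n = 3 each; -0.29, adjusted p = 0.0811). Keap1 itself was at 10.4, 11.4 and 10.5 FPKM in the knockdown, against 12.2, 13.0 and 13.6 FPKM in WT (-0.22, adjusted p = 0.0982), and Dpp3, a peptidase that can compete with NRF2 for Keap1, stood at -0.29 on the log2 scale (edgeR adjusted p = 0.0716).

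Further NRF2 targets moved in both directions. Of 25 tested genes 4 rose and 2 fell (median -0.03), and 2 rose and 1 fell without knockdown replicate 3. The glutathione transferase gene Gstm1 had 539, 504 and 487 FPKM in the knockdown, against 273, 206 and 201 FPKM in WT, a log2 fold change of 1.21 (SE 0.15, edgeR adjusted p = 0.0113). Gstm2 (1.39) and Gsta4 (1.10) rose as well. Gstm1 and Gstm2 belong to one cluster of related genes, and how reads were divided between them was not tested. The scavenger receptor gene Cd36 rose to 51.0 ± 7.07 FPKM in the knockdown, against 31.4 ± 3.40 FPKM in WT (SD, n = 3 each; 0.75, adjusted p = 0.0246). The aldo-keto reductase gene Akr1b8 fell to 38.3, 37.2 and 27.6 FPKM in the knockdown, against 62.9, 64.8 and 70.4 FPKM in WT (-0.89, SE 0.13, adjusted p = 0.0143), and the scavenger receptor gene Marco fell to 0.631 ± 0.361 FPKM in the knockdown, against 2.71 ± 0.856 FPKM in WT (SD, n = 3 each; -2.06, adjusted p = 0.0451). The heme oxygenase gene Hmox1 was at 381, 310.0 and 233 FPKM in the knockdown, against 392, 367 and 326 FPKM in WT, with overlapping groups and a log2 fold change of -0.18 (adjusted p = 0.557).

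**Figure D4:**
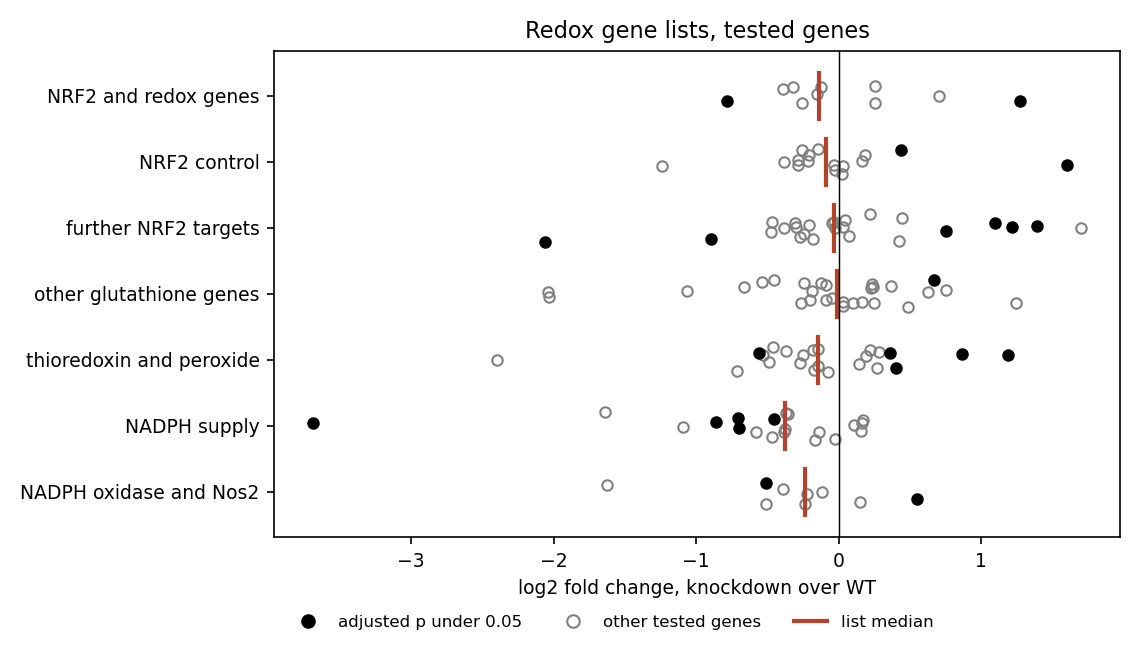
Log2 fold change, knockdown over WT, of each tested gene in the 10-gene set and the 6 related lists; filled points had an adjusted p under 0.05 and the vertical bar is the list median. The median of the NADPH supply list, -0.38, is the farthest from 0, and its 5 filled points all lie below 0.

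Most other genes of glutathione synthesis, use and breakdown did not pass. Of 28 tested genes 1 rose and none fell (median -0.01), and none passed without knockdown replicate 3 in edgeR, where DESeq2 called 3 higher and 3 lower. The gene that rose was Gsto1, an omega-class glutathione transferase, with 66.2, 72.3 and 69.0 FPKM in the knockdown, against 50.8, 43.7 and 40.1 FPKM in WT (0.67, SE 0.11, edgeR adjusted p = 0.0165). Next by p were Gpx3, the secreted glutathione peroxidase, at 83.3 ± 26.3 FPKM in knockdown libraries and 36.3 ± 13.8 FPKM in WT (SD, n = 3 each; 1.25, adjusted p = 0.0560), the microsomal transferase gene Mgst1 (0.75, adjusted p = 0.0719) and the glutaredoxin gene Glrx (-0.54, adjusted p = 0.0792).

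The thioredoxin and peroxide list held 4 genes that rose and 1 that fell of 23 tested (median -0.15), and 2 rose and none fell without knockdown replicate 3. Txn1, thioredoxin itself and the substrate of Txnrd1, was at 461, 436 and 533 FPKM in the knockdown, against 272, 263 and 280.4 FPKM in WT. All knockdown libraries were well above all WT libraries, and the log2 fold change was 0.86 (SE 0.11, edgeR adjusted p = 0.0113). Txnrd3, a thioredoxin and glutathione reductase best known from testis, was at 3.93, 3.62 and 4.43 FPKM in the knockdown, against 1.92, 1.88 and 1.66 FPKM in WT (1.18, SE 0.15, adjusted p = 0.0114). The mitochondrial peroxiredoxin gene Prdx3 (0.36) and Txndc17 (0.40), a thioredoxin-related protein gene, rose by less. Prdx4, the peroxiredoxin of the endoplasmic reticulum, fell to 19.4 ± 0.992 FPKM in the knockdown, against 29.6 ± 4.17 FPKM in WT (SD, n = 3 each; -0.56, adjusted p = 0.0306).

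Of 20 tested genes that supply NADPH, with Me1 left out, 5 fell and none rose, beside 6.46% of all tested genes that fell. A total of 16 of the 20 had a log2 fold change below 0 (median -0.38). In 13 of the 20 the lowest library was knockdown replicate 3, which was the lowest for 25.2% of all tested genes. Without it 1 fell in edgeR and 8 fell in DESeq2, and the median was -0.34. The number that fell in edgeR was 1 and 3 without knockdown replicates 1 and 2. It was 5, 0 and 2 without WT replicates 1, 2 and 3. Over the whole table these 5 fits called 377, 1130, 2334, 0 and 625 genes in that order, against 2058 on all 6 libraries. The 0 without WT replicate 2 was thus fixed in advance. The list medians in these fits were -0.42, -0.46, -0.42, -0.44 and -0.32. Idh1, the cytosolic isocitrate dehydrogenase, was at 83.2, 96.1 and 74.6 FPKM in the knockdown, against 190.1, 158 and 128 FPKM in WT (-0.86, SE 0.16, edgeR adjusted p = 0.0234). Nadk, the NAD kinase that makes NADP, fell to 42.3, 44.1 and 35.5 FPKM in the knockdown, against 79.3, 61.9 and 64.4 FPKM in WT (-0.71, SE 0.13, adjusted p = 0.0229). H6pd, the hexose-6-phosphate dehydrogenase of the endoplasmic reticulum (-0.70), and the pentose phosphate gene Tkt (-0.45) fell too, as did Aldh1l2 (-3.69), which was below 1 FPKM in each library and had 9 to 458 counts. D10Wsu102e, which overlaps it on the opposite strand, held 3542 to 5201 counts, so the value of Aldh1l2 is uncertain. Nnt, one of the 20, is split over 2 identifiers and its value is uncertain. G6pdx, the entry enzyme of the pentose phosphate pathway, was at 128 ± 22.4 FPKM in knockdown libraries and 182 ± 9.11 FPKM in WT (SD, n = 3 each; -0.47, adjusted p = 0.0586).

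The NADPH oxidase spends NADPH to make superoxide in phagocytes. Of 9 tested genes in a list of NADPH oxidase and nitric oxide synthase genes 1 rose and 1 fell (median -0.24); none passed in edgeR without knockdown replicate 3, where DESeq2 called 1 higher and 2 lower. Cyba, the membrane subunit p22phox, was at 629, 719 and 665 FPKM in the knockdown, against 525, 450 and 444 FPKM in WT (0.55, SE 0.10, edgeR adjusted p = 0.0217). Ncf1, the cytosolic organizer p47phox, was at 106, 122 and 99.2 FPKM in the knockdown, against 175, 158 and 147 FPKM in WT (-0.51, SE 0.11, adjusted p = 0.0295); Gtf2ird2, which overlaps it on the opposite strand, held 666 to 1671 counts a library beside at least 32430 for Ncf1. Rac1, a small GTPase needed for oxidase activity, did not pass (-0.22, adjusted p = 0.0763).

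Markers of other cells that bone marrow cultures can hold moved with the groups in part. In edgeR 4.87% of all tested genes were called higher and 6.46% lower. Mast cell, basophil and eosinophil markers summed to 6.54 to 14.9 FPKM in the knockdown, against 2.12 to 4.45 FPKM in WT, with 2 of 7 tested genes higher. Erythroid markers summed to 1.93 to 15.2 FPKM in the knockdown, against 0.814 to 1.18 FPKM in WT, with 1 of 5 tested genes higher and Alas2 at 0 counts in all libraries. All 5 tested genes were above 0 (list median 2.80). Neutrophil markers summed to 79.8 to 128 FPKM in the knockdown, against 102 to 155 FPKM in WT, with 1 of 10 higher and 1 lower. Macrophage markers summed to 1751 to 1915 FPKM in the knockdown, against 1789 to 2001 FPKM in WT. That sum was carried by Cd68, which rose (1402, 1273 and 1571 FPKM in the knockdown, against 938, 930.2 and 971 FPKM in WT), while 6 of the 8 markers were below 0 and the list median was -0.90. Itgam, among those called lower, overlaps the protein-coding gene Gm49368 on the same strand. Gm49368 held 17952, 28545 and 31313 counts in the knockdown, against 27239, 36502 and 21262 in WT. Itgam held 16389 to 52858 counts, and how reads were divided between the 2 genes was not tested. B cell markers summed to 83.1 to 212 FPKM in the knockdown, against 92.3 to 140 FPKM in WT. That sum was carried by Igkc (109, 52.0 and 202 FPKM in the knockdown, against 36.4, 52.2 and 67.3 FPKM in WT; edgeR adjusted p = 0.130). The other 6 of the 7 B cell genes had log2 fold changes below 0 (list median -1.43), and 1 of them, Ighm, fell. None of 3 tested T and NK cell genes or 8 stromal genes passed. The 8 listed T and NK cell genes, untested ones included, summed to 0.963 to 1.07 FPKM in the knockdown, against 0.917 to 1.58 FPKM in WT. Of these Cd3g was at 0 counts. Stromal genes summed to 2.499 to 8.15 FPKM in the knockdown, against 4.47 to 10.6 FPKM in WT. The part of such other cells in the results above was not tested.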

How the data were processed

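Per the labels' protocols, total RNA from M-CSF-induced bone marrow macrophages was made into libraries with a SMARTER mRNA-Seq kit. The authors trimmed adapters with cutadapt 1.9, per the file headers. The builds GRCm38 and mm10 are named in the submitters' processing notes. Aligner, counter and use of strand: not given in the sources used here. In 1 table the authors deposited whole-number estimated counts and FPKM values per gene and library. The estimated counts summed to 2.95 to 3.01 per read pair kept (75.8 to 83.2 M per library), so no counting interval was made from them. Genes without counts carry an FPKM of 0.0001 in the deposited table. The planned count test was kept, since the estimated counts are whole.

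Counts were tested over the whole table with edgeR 4.0.16 in R 4.3.3 (filterByExpr with a minimum count of 10, TMM, quasi-likelihood test, Benjamini-Hochberg adjustment over 18164 genes, threshold 0.05), with group as the only term. An SE is the log2 fold change divided by the square root of F. The alternatives were RLE size factors, library totals alone, DESeq2 1.42.0, no count filter, a robust fit, counts divided by 3, limma 3.58.1 on log2(FPKM + 1) or log2(FPKM + 0.1) with a mean of at least 1 FPKM and on log2(FPKM + 1) without a filter, a block on replicate number, and leaving out each library in turn. Leaving libraries out in DESeq2 was added after the data had been seen.

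The members and all lists were chosen with earlier results of these data known. Named were all members and, of each related list, the genes that passed and up to 4 with the smallest p, of which 1 is not reported here; Keap1, Hmox1, G6pdx, Gm17494, Nfe2l1 and Nnt were named after their values were seen, as were Lyz2 and single marker genes. Of 196 listed symbols, 1 (Nnt) had more than 1 identifier, and the one with the most counts was used. Gene coordinates are those of the deposited table.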

Additional observations from a re-analysis of the deposited data

How the results depend on the processing

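The direction of every member's log2 fold change was kept in all fits that used 6 libraries, and with 1 library left out in all but Gclm and Srxn1, which turned to 0.05 and 0.06 in edgeR and to 0.04 and 0.05 in DESeq2 without knockdown replicate 3 (edgeR range with 1 library left out -0.76 to 0.05 and -0.30 to 0.06). The counts of calls were less stable. Over all genes 2058 passed as reported, 4147 by DESeq2, 1205 without a count filter, 1155 in limma on log2(FPKM + 1) without a filter, and 0 (without WT replicate 2) to 2334 in edgeR with 1 library left out, where DESeq2 called 3725, 3464 and 3150 without knockdown replicates 1, 2 and 3 and 4738, 2640 and 3099 without WT replicates 1, 2 and 3; without WT replicate 2, 4065 genes had an unadjusted p under 0.05 in edgeR. With the replicate number as a block 728 genes passed; the pairing had no support in the labels, and deviations of same-numbered libraries correlated at 0.0458, 0.0361 and -0.0108. Members called were 1 higher and 1 lower as reported. They were 0 and 0 without a count filter, in limma without a filter and with the replicate block. With 1 library left out they were 0 to 1 higher and 0 to 1 lower in edgeR, and 1 to 2 higher and 1 to 2 lower in DESeq2. Fits without a filter adjust over more genes than the reported one; the cause of the other shifts was not tested. Of 220 member estimates under an alternative, 196 kept direction and side of the threshold, 16 lost a call, 4 gained one and 4 changed sign. Only Osgin1 and Me1 had a call to lose, so all 16 losses were theirs. In edgeR with 1 library left out, Osgin1 kept its call in 0 of 6 fits and Me1 in 2. Each kept it in 7 of 10 alternatives on 6 libraries, and in all 6 DESeq2 fits with 1 library left out.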

Other observations

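Nnt, the mitochondrial transhydrogenase that makes NADPH, appears under 2 overlapping identifiers. The longer one (chromosome 13, 119335448 to 119408997) was at 0.260, 8.75 and 0.256 FPKM in the knockdown, against 8.998, 10.1 and 0.722 FPKM in WT. The second one was at 12.7 and 6.31 FPKM in knockdown replicates 1 and 3 and at 14.6 FPKM in WT replicate 3, and had 0 counts in the other 3 libraries. Each library thus carried Nnt mainly under 1 of the 2 identifiers, so no change of Nnt was read from them.

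Nfe2l1, a relative of Nfe2l2 that drives proteasome genes, was at 8.49, 9.39 and 7.496 FPKM in the knockdown, against 8.87, 43.2 and 10.3 FPKM in WT. WT replicate 2 alone was high, and the log2 fold change was -1.24 (SE 0.58, edgeR adjusted p = 0.208).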
